A study of Rattus norvegicus with 4 samples.

Results

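The semaphorin signalling family was followed through single-nucleus RNA libraries of 2 rat fat depots. Members were taken by symbol: every gene whose name starts with Sema3, Sema4, Sema5, Sema6 or Sema7, every plexin of the A, B, C and D groups, and Nrp1 and Nrp2. This gave 31 of the 32883 genes in the matrices, made up of 20 semaphorins, 9 plexins and 2 neuropilins. The study compared thoracic aorta perivascular adipose tissue (taPVAT), the fat around the aorta, with subscapular brown adipose tissue (BAT), a classical heat-producing depot. Each tissue has 2 libraries, and all come from naive male rats of the Dahl salt-sensitive strain SS/HsdMcwiCrl aged 16 weeks, with no allele or treatment named. The series describes 2 rats for each tissue and does not say whether the same rats gave both tissues.

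Semaphorins are ligands and plexins are their receptors. Class 3 semaphorins are secreted, and most of them act through a neuropilin bound to an A-group plexin, while Sema3e can act on Plxnd1 without a neuropilin. Classes 4, 5 and 6 are membrane proteins, and Sema7a is held in the membrane by a lipid anchor. Activated plexins act on small GTPases and the cytoskeleton, which makes axons, endothelial cells or immune cells withdraw or change shape. Neuropilins also bind vascular endothelial growth factors, so their level in vessels is not specific to semaphorins.

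The libraries held 14765 to 44637 barcodes and 63654436 to 158140959 unique molecular identifiers (UMIs), and 11727 to 35590 nuclei were used in each. Pairs of libraries shared 126 to 424 barcodes. Nuclei were assigned to classes by marker genes outside the family. Over the 4 libraries, 70238 were adipocytes, 4276 vascular endothelial, 2654 mural (smooth muscle and pericytes), 2631 fibroblasts, 775 myeloid, 698 T or NK lymphocytes, 374 Schwann cells, 342 B lymphocytes, 327 lymphatic endothelial and 41 mesothelial. A further 388 carried the markers of several classes and 18272 were unassigned. A level is given as CPM, the UMIs of a gene per 1000000 UMIs of that class in that library. CPM is not corrected for gene length, so each gene is compared across classes and libraries and never with another gene. Adipocyte RNA was found in every class: the median adipocyte marker stood at 24.4% to 87.3% of its level in adipocyte nuclei of the same library.

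The members were compared across cell classes first. In 8 classes with at least 20 nuclei in every library, 24 of the 31 members reached a mean of 10 CPM somewhere. Each class was set against the mean of the other classes with edgeR's quasi-likelihood test and a term for the library. Of 23 members tested, 13 were higher and 6 lower in vascular endothelial nuclei, where 18.6% and 13.2% of all 10086 genes were called higher and lower. Fibroblasts had 7 members higher and 5 lower, beside 18.9% and 15% of all genes. Myeloid nuclei had 5 higher and 0 lower (11.3% and 5.8%), and Schwann nuclei 6 higher and 0 lower (8.11% and 4.66%). Mural nuclei had 4 in each direction (13.6% and 7.2%), T or NK lymphocytes 3 higher and 5 lower (9.38% and 6.78%), and B lymphocytes 2 in each direction (5.72% and 3.84%). Adipocytes had 4 members higher and 11 lower, beside 30.2% and 25.3% of all genes. Of the 23, Sema7a, Sema3g and Sema6b passed the low-count filter only through vascular endothelial and Sema4f only through Schwann nuclei, where they are high, so their calls there are a description. Sema3e and Sema3d were over the filter's cutoff of 11.28 CPM in another class as well. That was in too few libraries to pass without Schwann nuclei for Sema3e and without fibroblasts for Sema3d. Their calls in those classes, where they are high, are a description too. In what follows, the leading class of a member is the one with the highest mean among these 8. Lymphatic endothelial and mesothelial nuclei, too few for this test, are not among them and are described after them, with values above the leading class for some members.

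**Figure D1:**
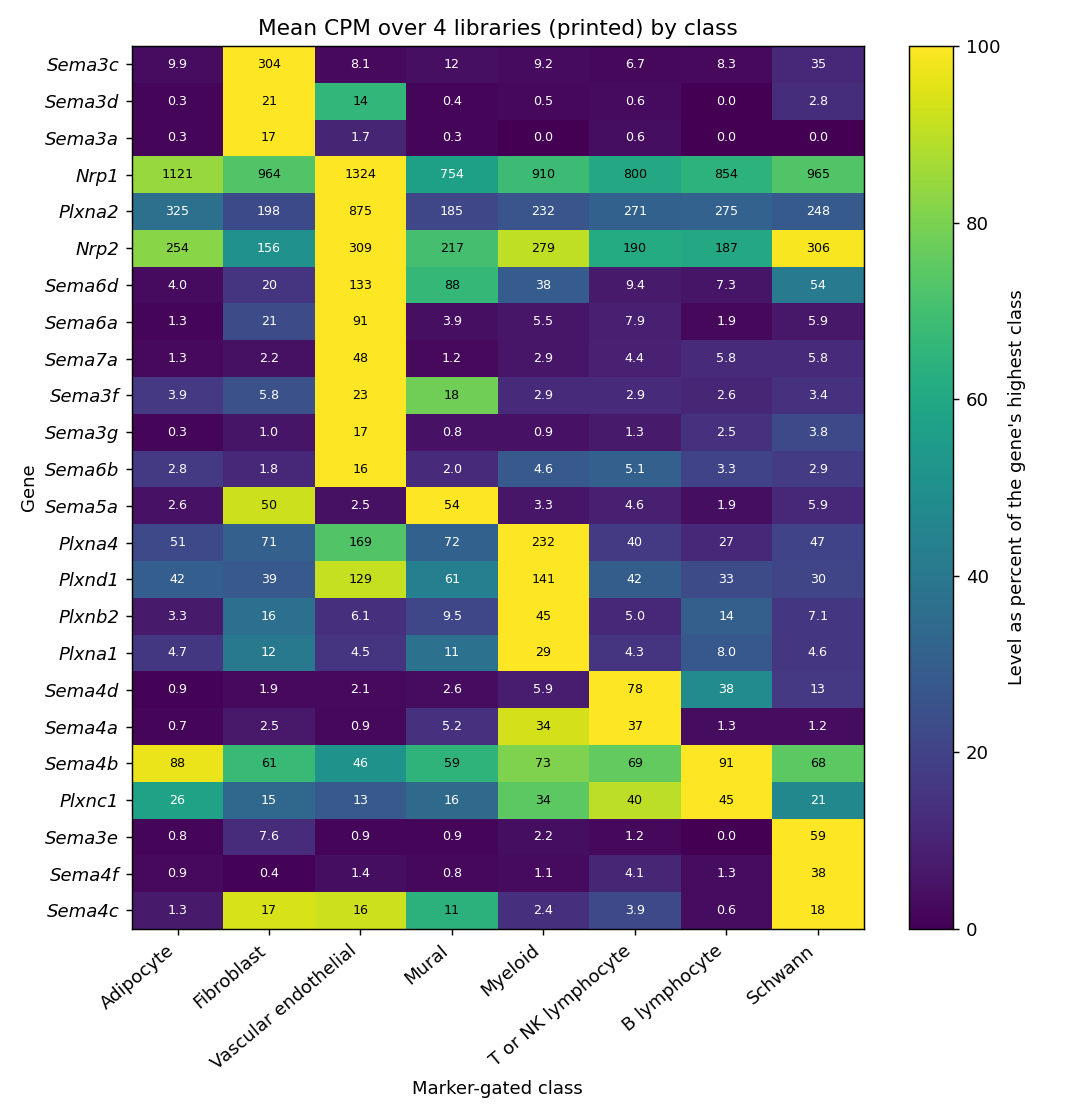
Mean CPM over 4 libraries (number in each cell) of the 24 members that reached 10 CPM, by marker-gated class; colour gives the level as percent of the gene's highest class. Vascular endothelial nuclei held the highest mean of 9 members, and Nrp1 and Nrp2 were present in all 8 classes.

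Among the ligands, vascular endothelial nuclei led the 8 classes for the most members: Sema6a, Sema6d, Sema7a, Sema3f, Sema3g and Sema6b. Sema6a, a transmembrane ligand of A-group plexins, had 101 and 85.0 CPM in the taPVAT libraries and 98.0 and 81.6 CPM in the BAT libraries. All 4 values lay above every library of fibroblasts, the next class, which reached 33.0 CPM. The log2 difference from the other classes was 4.32 (SE 0.23, edgeR adjusted p = 1.02e-16).

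Sema7a, which binds Plxnc1 and integrins, had 21.7 and 55.3 CPM in taPVAT and 33.4 and 82.0 CPM in BAT endothelial nuclei. The next class, B lymphocytes, reached 10.6 CPM, so these classes did not overlap (log2 difference 4.0, SE 0.24, edgeR adjusted p = 2.00e-15). Sema3g, a secreted ligand known from arterial endothelium, had 16.1 and 24.8 CPM in taPVAT and 13.1 and 14.8 CPM in BAT, while Schwann cells, its next class, reached 5.56 CPM. Sema6b, with 16.5 ± 3.69 CPM (SD, n = 4), was above every library of its next class as well. The 2 others overlapped with mural nuclei. Sema6d had 133 ± 51.0 CPM in endothelial and 88.2 ± 45.5 CPM in mural nuclei (SD, n = 4), and Sema3f had 23.4 ± 9.01 and 18.3 ± 5.06 CPM.

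Among the 8 classes, fibroblasts were the leading one of Sema3c, Sema3d and Sema3a, all secreted. Sema3c, known from the outflow tract of the developing heart, had 417 and 538 CPM in taPVAT and 124 and 136 CPM in BAT fibroblasts. Schwann cells, the next class, reached 45.3 CPM, below the lowest fibroblast library (log2 difference 4.66, SE 0.19, edgeR adjusted p = 1.59e-19). Sema3d had 29.9 and 34.9 CPM in taPVAT and 9.0 and 11.4 CPM in BAT fibroblasts (log2 difference 5.36, SE 0.63, edgeR adjusted p = 6.34e-08), and 1 vascular endothelial library stood higher, at 46.2 CPM. Sema3a, the classical axon repellent, had 24.6 and 34.0 CPM in taPVAT and 4.70 and 4.57 CPM in BAT. It did not pass the low-count filter of the fit between the 8 classes and was not tested there.

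Schwann cells, the glia of peripheral nerves, led the 8 classes for Sema3e and Sema4f. Sema3e had 57.2 and 56.9 CPM in taPVAT and 42.6 and 78.5 CPM in BAT, against at most 14.4 CPM in fibroblasts (log2 difference 6.13, SE 0.49, edgeR adjusted p = 3.48e-11). Sema4f had 47.7 and 15.8 CPM in taPVAT and 40.7 and 49.0 CPM in BAT, and T or NK lymphocytes, the next class, reached 5.31 CPM (log2 difference 5.21, SE 0.43, edgeR adjusted p = 1.59e-11). Neither gene overlapped with its next class. Sema4c also had its highest mean in Schwann nuclei, 17.7 ± 8.41 CPM (SD, n = 4), but fibroblast and vascular endothelial nuclei had 16.6 and 16.3 CPM and overlapped with it.

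The promoters of 4 class 3 ligands are shown here. Sema3c, Sema3e and Sema3d lie on rat chromosome 4, where fibroblasts were the leading class of Sema3c and Sema3d and Schwann cells that of Sema3e. Sema3g, on chromosome 16, is shown as a class 3 ligand with an endothelial lead, which Sema3f had as well. Each run holds the 250 bases before the RefSeq transcription start on the GRCr8 assembly, 5′ to 3′ on the gene's strand. Capitals mark matches on either strand of 3 motifs: AACAAT (a SOX core), GGGCGG (a GC box, CCGCCC on the other strand) and CACGTG (an E-box).
Sema3c, chr4:18699628-18699877, minus strand: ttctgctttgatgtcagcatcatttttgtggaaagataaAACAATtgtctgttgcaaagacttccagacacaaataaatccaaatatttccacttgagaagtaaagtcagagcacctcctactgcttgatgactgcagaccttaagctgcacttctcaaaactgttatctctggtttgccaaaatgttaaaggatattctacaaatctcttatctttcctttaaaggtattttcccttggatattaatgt
Sema3e, chr4:21510375-21510624, minus strand: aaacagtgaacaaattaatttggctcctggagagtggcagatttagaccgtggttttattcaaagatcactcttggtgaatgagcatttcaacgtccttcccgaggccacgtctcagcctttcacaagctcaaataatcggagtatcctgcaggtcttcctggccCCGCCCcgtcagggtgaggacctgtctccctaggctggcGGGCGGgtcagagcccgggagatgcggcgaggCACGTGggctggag
Sema3d, chr4:23460972-23461221, minus strand: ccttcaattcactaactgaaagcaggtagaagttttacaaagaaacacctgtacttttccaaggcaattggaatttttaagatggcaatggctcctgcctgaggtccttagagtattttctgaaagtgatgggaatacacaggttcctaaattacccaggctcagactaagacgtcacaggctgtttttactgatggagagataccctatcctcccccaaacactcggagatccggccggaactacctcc
Sema3g, chr16:6419775-6420024, plus strand: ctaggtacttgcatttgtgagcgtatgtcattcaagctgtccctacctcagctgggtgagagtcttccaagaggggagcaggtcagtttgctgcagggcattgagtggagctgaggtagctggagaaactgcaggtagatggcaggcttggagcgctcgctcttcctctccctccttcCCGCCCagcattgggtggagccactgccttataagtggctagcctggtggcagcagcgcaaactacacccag

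Of the 31 members, 23 had such a window in the RefSeq table. The GC box was in 13 of the 23, beside 32.4% of the windows of all 27457 genes in the table. None of the 23 held TATAAA, which 13.1% of all windows hold. The Sema3c window had a GC content of 35.2%, against a median of 52% over all genes, and was the only member window with AACAAT (10.3% of all windows). CACGTG was in the windows of Sema3e and Sema4b (5.79% of all windows), and CGGAAG, an ETS core, in those of Nrp1, Plxnb1 and Sema4a (14.7%). These matches describe letters and say nothing of factor binding.

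Lymphocytes were the leading class, of the 8, of class 4 ligands known from immune cells. Sema4d, also called CD100, had 54.8 and 112 CPM in taPVAT and 78.7 and 66.9 CPM in BAT T or NK lymphocytes, against a mean of 37.5 CPM in B lymphocytes. The T or NK value was the higher in all 4 libraries (log2 difference from the other classes 3.98, SE 0.20, edgeR adjusted p = 5.94e-17). Sema4a had 36.8 ± 18.4 CPM in T or NK lymphocytes and 34.5 ± 11.7 CPM in myeloid nuclei (SD, n = 4), each the higher in 2 libraries. Sema4b had its highest mean in B lymphocytes, 90.8 CPM, but adipocytes had 88.1 CPM and the difference of B lymphocytes from the other classes missed the threshold (log2 difference 0.36, SE 0.20, edgeR adjusted p = 0.315).

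Mural nuclei led the 8 classes for Sema5a, a membrane protein with thrombospondin repeats. Its 40.8 and 52.4 CPM in taPVAT and 73.1 and 47.8 CPM in BAT mural nuclei (log2 difference 3.63, SE 0.30, edgeR adjusted p = 1.19e-11) overlapped with the fibroblast values. In mural nuclei the 5 of 7 listed skeletal muscle genes found in the matrices summed to 283 and 575 CPM in taPVAT and 288 and 358 CPM in BAT. Of this, Neb alone made up 281 and 574 CPM in taPVAT and 287 and 355 CPM in BAT, and Myh4 was at 0 in all 4 libraries. The sum is thus the value of 1 gene, and its bearing on Sema5a was not tested.

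Of the 8 classes, myeloid nuclei were the leading one of 4 plexins. Plxna4, an A-group receptor, had 222 and 234 CPM in taPVAT and 252 and 218 CPM in BAT, above the vascular endothelial value of the same library in all 4 (endothelial mean 169 CPM). The log2 difference of myeloid nuclei from the other classes was 1.98 (SE 0.18, edgeR adjusted p = 2.41e-10). Plxnb2, a receptor of class 4 semaphorins, had 36.7 and 66.7 CPM in taPVAT and 33.6 and 42.8 CPM in BAT, and fibroblasts, the next class, reached 22.6 CPM. Plxna1 had 29.2 ± 12.8 CPM and was above fibroblasts in all 4 libraries. Plxnd1, the vascular receptor of Sema3e, had 141 ± 37.9 CPM in myeloid and 129 ± 23.0 CPM in endothelial nuclei (SD, n = 4), which overlapped.

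Plxna2 was the plexin with its highest mean of the 8 classes in vascular endothelial nuclei. It had 567 and 1146 CPM in taPVAT and 533 and 1255 CPM in BAT endothelial nuclei, while adipocytes, the next class, reached 377 CPM (log2 difference 1.85, SE 0.16, edgeR adjusted p = 1.85e-11). The 2 libraries of each tissue lay far apart and the tissues overlapped. Plxnc1, the receptor of Sema7a, had its highest mean in B lymphocytes, 44.9 ± 26.3 CPM (SD, n = 4), with T or NK lymphocytes at 40.4 CPM and no separation between them.

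The neuropilins were present in all classes. Nrp1 had 1324 ± 402 CPM in vascular endothelial and 1121 ± 38.8 CPM in adipocyte nuclei (SD, n = 4), and the endothelial value was the higher in 2 of 4 libraries. Nrp2 had 309 ± 71.4 CPM in vascular endothelial and 306 ± 97.2 CPM in Schwann nuclei. Nrp1 and Nrp2 were called higher in vascular endothelial nuclei than in the mean of the other classes. The log2 differences were 0.57 (SE 0.11) and 0.51 (SE 0.11), with edgeR adjusted p of 1.6e-04 and 5.3e-04. Both were also called higher in adipocytes than in the mean of the other classes, by 0.48 (SE 0.11) and 0.31 (SE 0.11) on the log2 scale (edgeR adjusted p = 6.56e-04 and 0.0190). In fibroblast nuclei Nrp1 stood at 65.7% to 98.5% of the adipocyte level of the same library, and in T or NK lymphocytes at 42.4% to 89.1%. By the same measure, adipocyte markers had a median of 29.0% to 62.3% over fibroblast libraries, below Nrp1 in all 4. In T or NK lymphocytes their median was 64.5% to 78.5%, within the range of Nrp1. Single markers spread widely: the highest stood at 94.95% to 125.8% over fibroblast libraries and at 104.5% to 338.6% in T or NK lymphocytes. The part of adipocyte RNA in these values was not tested. Adipocyte nuclei held 73.8% of the UMIs of all genes, 73.9% of all Nrp1 UMIs and 73.5% of all Nrp2 UMIs, but 14.3% of those of Sema6a and 9.05% of those of Sema3a.

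**Figure D2:**
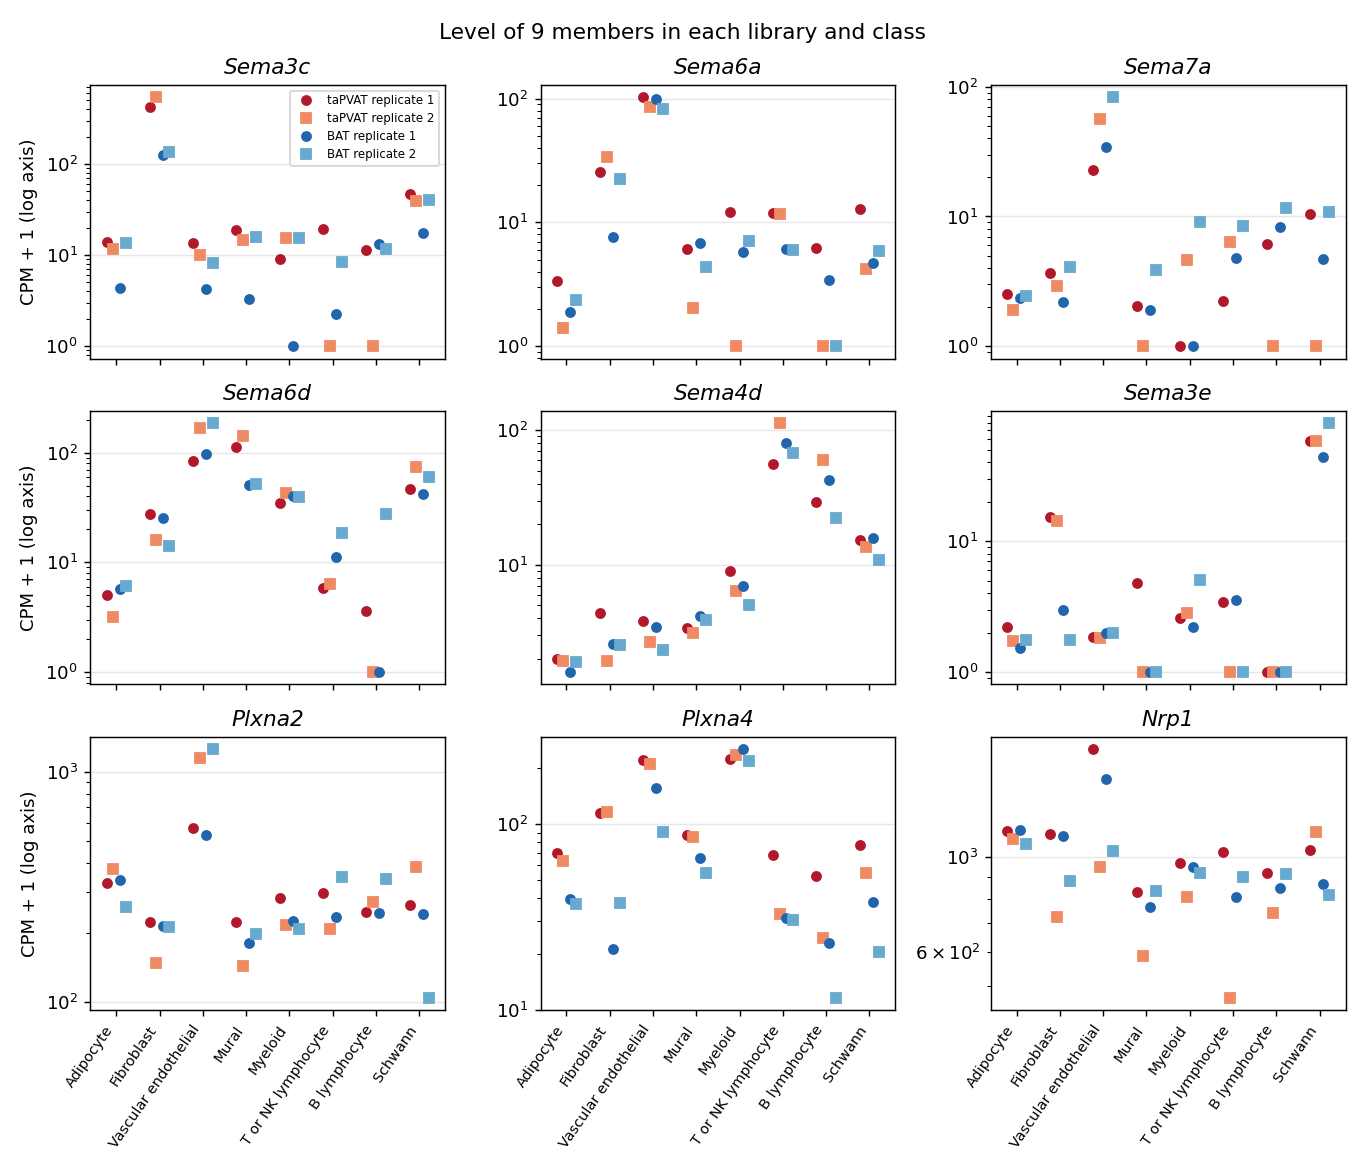
CPM + 1 (log axis) of 9 members in 8 classes, 1 point per library: red taPVAT and blue BAT, circles replicate 1 and squares replicate 2. Sema3c in fibroblasts (124 to 538 CPM) and Sema7a in vascular endothelial nuclei (21.7 to 82.0 CPM) stand above their next class, while Nrp1 overlaps across classes.

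The other 7 members stayed under 10 CPM in all 8 classes. Plxnb3 had 9.69 ± 3.51 CPM in Schwann nuclei (SD, n = 4), from 3 or 4 UMIs in each library, and no UMI in vascular endothelial, mural, myeloid or lymphocyte nuclei. Sema3b and Plxna3 had their highest means in Schwann nuclei (4.95 and 4.0 CPM), Sema5b in vascular endothelial nuclei (3.46 CPM), Plxnb1 in mural nuclei (2.71 CPM), Sema4g in T or NK lymphocytes (2.18 CPM) and Sema6c in fibroblasts (1.38 CPM). In all 4 libraries Plxnb3 was above fibroblasts, its next class (at most 0.762 CPM), and Sema5b above mural nuclei (at most 1.35 CPM). The other 5 overlapped with their next class.

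Lymphatic endothelial nuclei held more than 50% of all Sema3a and Sema3d UMIs in the data (60.4% and 50.6%). For Sema3d the share was 52.0% and 51.7% in the taPVAT libraries and 25.9% and 54.0% in the BAT libraries, and for Sema3a it was 12.5% in BAT replicate 1, so BAT replicate 1 stood below the pooled share for both. The held-out lymphatic endothelial markers summed to 744 to 2562 CPM there, against 40.5 to 93.7 CPM in vascular endothelial nuclei. There were 250 and 48 such nuclei in the taPVAT libraries but 13 and 16 in the BAT libraries, so only taPVAT sums entered a test, which was added after the data were seen. Sema3a, which is known for its part in lymphatic valves, had 486 and 1668 CPM in taPVAT and 111 and 452 CPM in BAT lymphatic nuclei. Sema3d had 427 and 1038 CPM in taPVAT and 259 and 412 CPM in BAT. For both genes all 4 values were above every fibroblast and vascular endothelial library.

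In that fit 10 of 24 members tested were higher in lymphatic nuclei and Nrp1 was lower, beside 7.85% and 1.41% of 10896 genes. The log2 difference from the other classes was 11.22 for Sema3a (SE 0.39, edgeR adjusted p = 9.55e-17) and 8.50 for Sema3d (SE 0.44, adjusted p = 2.33e-15). Some other classes had no UMI of these genes, so the size of both differences depends on the prior count of the fit. Sema6a, with 255 and 400.0 CPM in taPVAT, was higher by 5.16 (SE 0.34, edgeR adjusted p = 1.03e-13). Nrp2, the neuropilin known from lymphatic vessels, had 562 and 911 CPM and was higher by 1.79 (SE 0.17, edgeR adjusted p = 4.04e-10). Nrp1 had 749 and 229.8 CPM and was lower (log2 difference -0.98, SE 0.23, edgeR adjusted p = 0.00318). Over the 4 libraries, lymphatic Nrp1 stood at 20.82% to 85.99% of its adipocyte level. The median adipocyte marker stood at 68.15% and 27.61% in the lymphatic nuclei of taPVAT replicates 1 and 2. The part of adipocyte RNA in the lymphatic Nrp1 value was not tested. Sema3f, Sema4c, Sema4d, Sema6b, Sema6d and Plxna4 were the other members called higher. Sema3g, the arterial ligand, had no UMI in lymphatic nuclei of any library.

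Mesothelial nuclei, from the covering layer of serous surfaces, were found only in the taPVAT libraries, 27 and 14 of them, and are given without a test. They had Sema3c at 1442 and 2883 CPM, Plxna4 at 916 and 1634 CPM, Sema5a at 581 and 953 CPM and Sema3e at 268 and 431 CPM. Each value was above that of fibroblasts in the same library. Sema3d and Sema6d had no UMI in them.

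**Figure D3:**
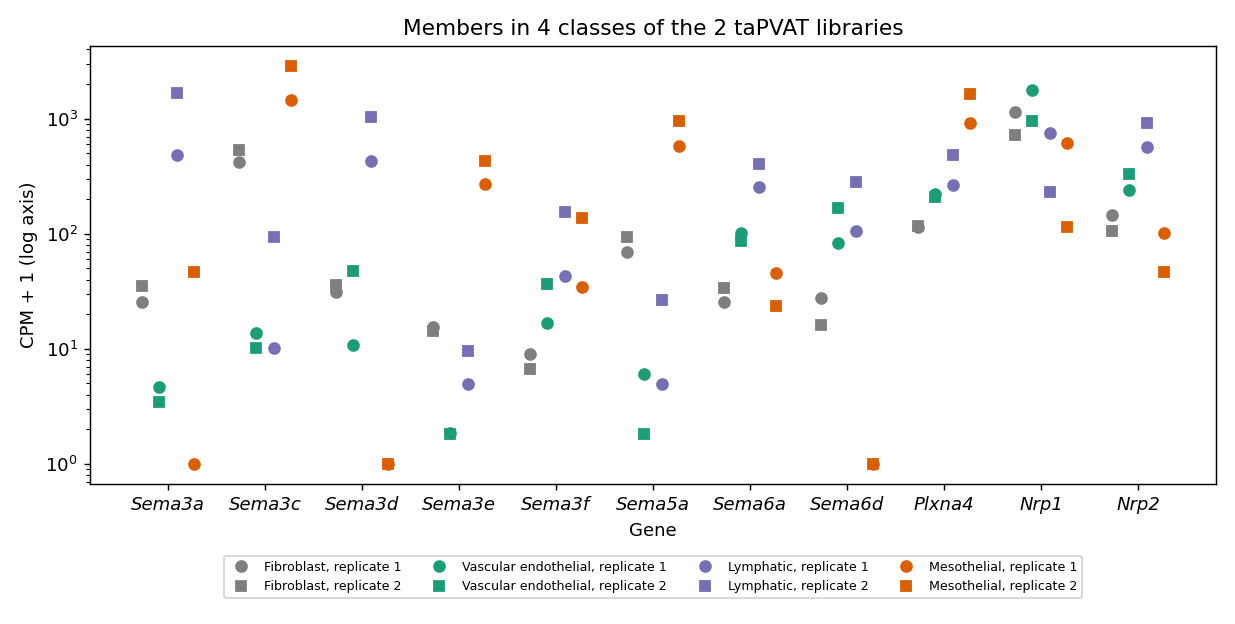
CPM + 1 (log axis) of 11 members in 4 classes of the taPVAT libraries, circles replicate 1 and squares replicate 2. Lymphatic points lead for Sema3a (486 and 1668 CPM) and Sema3d, and mesothelial points for Sema3c (1442 and 2883 CPM), Sema3e, Sema5a and Plxna4.

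Within vascular endothelial nuclei, members separated arterial from other cells. Nuclei with at least 2 UMIs of 6 arterial genes (Sox17, Gja5, Gja4, Hey1, Efnb2 and Bmx) were compared with those that had none. Of 14 members tested, Sema3g and Plxna4 were higher and Nrp2 was lower in arterial nuclei, where 2.27% and 0.729% of 8371 genes were called. Sema3g had 35.0, 60.5, 26.9 and 19.9 CPM in arterial nuclei (taPVAT replicates 1 and 2, then BAT replicates 1 and 2) and 8.33, 12.8, 2.75 and 9.47 CPM in the others, without overlap (log2 difference 2.04, SE 0.30, edgeR adjusted p = 2.27e-04). Among the others only the 12.8 CPM was over the low-count filter's cutoff of 9.613 CPM. Sema3g thus passed through the arterial sums, where it is high, so its calls and the count that holds it are a description. Plxna4 had 274, 316, 292 and 150.4 CPM in arterial and 195, 184, 101 and 66.3 CPM in other nuclei, higher in every library (log2 difference 0.95, SE 0.14, edgeR adjusted p = 1.91e-04). Nrp2, known from veins and lymphatics, was lower in arterial nuclei in every library (log2 difference -0.48, SE 0.10, edgeR adjusted p = 0.00870). It was not called by DESeq2 (adjusted p = 0.0658) or by edgeR without taPVAT replicate 1 or without BAT replicate 1 (0.0659 and 0.0903). Sema3g and Plxna4 were called in all of these fits.

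Mural nuclei were split by which of a smooth muscle and a pericyte list led by at least 2 UMIs. Of 10 members tested, Sema5a was higher in smooth muscle and Sema6d, Plxna4 and Nrp2 were lower, where 6.64% and 5.84% of 7631 genes were called. Sema6d had 136, 158, 66.0 and 66.2 CPM in pericytes and 17.6, 14.6, 13 and 23.9 CPM in smooth muscle nuclei, in the same order of libraries and without overlap (log2 difference, smooth muscle over pericyte, -2.26, SE 0.25, edgeR adjusted p = 9.71e-07). Sema5a had 92.2, 43.9, 171 and 70.5 CPM in smooth muscle and 28.7, 47.2, 31.2 and 30.8 CPM in pericytes (log2 difference 1.70, SE 0.23, edgeR adjusted p = 1.93e-05). taPVAT replicate 2, with 30 smooth muscle nuclei, was the library in which Sema5a was not higher. Plxna4 and Nrp2 were closer to the threshold, with log2 differences of -0.67 and -0.42 (edgeR adjusted p = 0.0409 and 0.0405). Neither was called by DESeq2 (adjusted p = 0.217 and 0.134) or by edgeR without taPVAT replicate 1 (0.420 and 0.196), while Sema6d and Sema5a were called by both.

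Fibroblasts with a UMI of Pi16 or Dpp4, markers of progenitor-like fibroblasts, were compared with the rest. Of 17 members tested, Sema3c, Sema3d and Sema6a were higher in them and Nrp1 was lower, where 2.61% and 3.27% of 8233 genes were called. Sema3c had 656, 1078, 557 and 356 CPM in Pi16 or Dpp4 fibroblasts and 236, 235, 58.5 and 105 CPM in the others (log2 difference 2.10, SE 0.19, edgeR adjusted p = 6.50e-08). Sema3d had 58.8, 78.8, 32.9 and 37.4 CPM against 7.99, 10.3, 5.40 and 7.81 CPM (log2 difference 2.67, SE 0.28, edgeR adjusted p = 5.87e-07). For both genes the subtypes did not overlap, and Sema3d passed the low-count filter only through the Pi16 or Dpp4 nuclei, where it is high. The log2 difference was 1.01 for Sema6a (SE 0.28), -0.58 for Nrp1 (SE 0.12) and 0.02 for Sema5a (SE 0.25), with edgeR adjusted p of 0.0328, 0.00217 and 1. When nuclei with much adipocyte RNA were left out, Sema3c and Nrp1 were called, Sema6a was not (edgeR adjusted p = 0.301) and Sema3d was not tested. Sema6a was also not called by DESeq2 (adjusted p = 0.220). With edgeR it was not called with at least 1000 genes per nucleus (adjusted p = 0.212) or with the stricter gate (0.0626). Leaving out any 1 library ended its call as well (edgeR adjusted p = 0.0678 to 0.134). Sema3c and Nrp1 were called in all of these, and Sema3d in each that tested it.

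**Figure D4:**
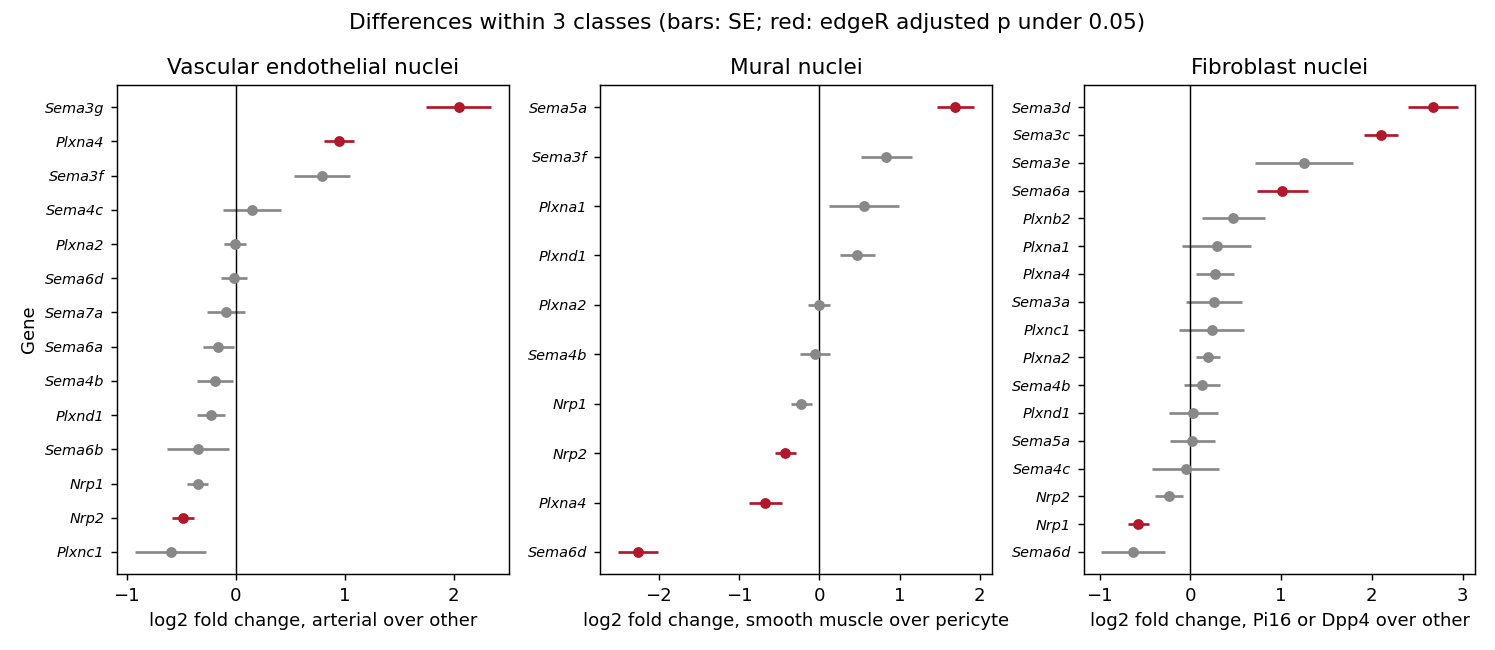
Log2 fold change (x axis) of each member tested within vascular endothelial, mural and fibroblast nuclei; bars are SE and red marks an edgeR adjusted p under 0.05. Sema3g (2.04) and Plxna4 lie to the arterial side, Sema6d (-2.26) to the pericyte side, Sema5a to the smooth muscle side, and Sema3d (2.67) and Sema3c to the side of Pi16 or Dpp4 fibroblasts.

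Between the tissues, fibroblasts had the most members with an unadjusted p under 0.05 of the 5 classes tested, but edgeR called none there after adjustment (0 of 18 tested, where 0.0197% of 10166 genes were called). An unadjusted p under 0.05 was found for 6 members there, beside 4.59% of all genes, and all 6 had higher values in taPVAT: the ligands Sema3a, Sema3c, Sema3d, Sema3e and Sema5a and the receptor Plxna4. DESeq2 called 3 of them, Sema3c (adjusted p = 0.00431), Sema5a (0.0218) and Plxna4 (0.0318), where it called 0.412% of genes. With every gene of at least 1 UMI in the edgeR fit, all 6 were called (1.06% of genes). The same 6 were called by edgeR with the replicate number as a block (2.62% of genes), which the labels do not tie to a rat or day. Without BAT replicate 2, which leaves BAT with a single library assumed to vary like those of taPVAT, edgeR called Sema3a, Sema5a and Plxna4 (0.774% of genes). Sema3a and Sema3e passed the low-count filter only through the taPVAT libraries, where they are high, so the counts that hold them are a description; of the other 16 members, 4 had an unadjusted p under 0.05. The median log2 difference was 0.62 over the 18 members tested and -0.00613 over all genes. The 18 hold Sema3a and Sema3e, so this median is a description as well.

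Sema5a had 68.5 and 92.4 CPM in taPVAT and 18.0 and 19.1 CPM in BAT fibroblasts (log2 difference 2.09, SE 0.35, edgeR adjusted p = 0.107). Plxna4 had 114 and 115 CPM in taPVAT and 20.4 and 36.6 CPM in BAT fibroblasts (log2 difference 1.99, SE 0.40, edgeR adjusted p = 0.177). With the limit on adipocyte RNA its log2 difference was 2.93 and it was the member called (edgeR adjusted p = 0.0301, 0.396% of genes). Sema3e had 14.4 and 13.2 CPM against 1.96 and 0.762 CPM (log2 difference 3.14, SE 0.60, edgeR adjusted p = 0.168). In these 3 genes the tissues did not overlap. The fibroblast values of Sema3a, Sema3c and Sema3d, given with the ligands, did not overlap either. Their log2 differences were 2.60 (SE 0.45), 1.85 (SE 0.36) and 1.65 (SE 0.39), with edgeR adjusted p of 0.108, 0.168 and 0.294. All were named only because both replicate numbers had 1 direction. The share of all genes without overlap between the tissues was not counted in this or any other class. The lack of overlap is therefore a description.

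Markers of mesothelial and lymphatic cells moved with these values. The held-out mesothelial list of 7 genes summed to 394 and 673 CPM in taPVAT and 81.4 and 68.6 CPM in BAT fibroblasts, most of it Gpm6a, with Calb2 at 0 in all 4 libraries. The 7 of 8 gating genes found in the matrices summed to 12.1 and 14.2 CPM in taPVAT and had no UMI in BAT, with Krt19 and Krt7 at 0 in all 4. The held-out lymphatic list of 5 genes summed to 56.0 and 142 CPM in taPVAT and 9.40 and 18.3 CPM in BAT, most of it Pkhd1l1. When fibroblasts with any UMI of the mesothelial lists were left out, the log2 difference was 2.47 for Sema3a, 1.68 for Sema3c and 1.75 for Sema3d. It was 1.2 for Sema5a and 1.28 for Plxna4, which moved by over 1.5 times in fold, and Sema3e was not tested. The part of lymphatic RNA in the fibroblast values was not tested.

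The makeup of the fibroblasts also differed. Pi16 or Dpp4 nuclei were 43.7% and 38.2% of taPVAT fibroblasts (403 of 922 and 166 of 435) and 13.5% and 13.1% of BAT fibroblasts (106 of 787 and 64 of 487). The 95% Wilson intervals, which cover counting error only, lay between 33.7% and 46.9% in taPVAT and between 10.4% and 16.4% in BAT. Within each subtype, the Sema3c values given for the split were still higher in both taPVAT libraries than in both BAT libraries. For Sema3d this held as well, though among the other fibroblasts the values of 7.99 and 7.81 CPM lay close together. Sema5a among the other fibroblasts had 79.9 and 72.1 CPM in taPVAT and 18.0 and 18.2 CPM in BAT. These values by subtype and tissue were not tested.

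**Figure D5:**
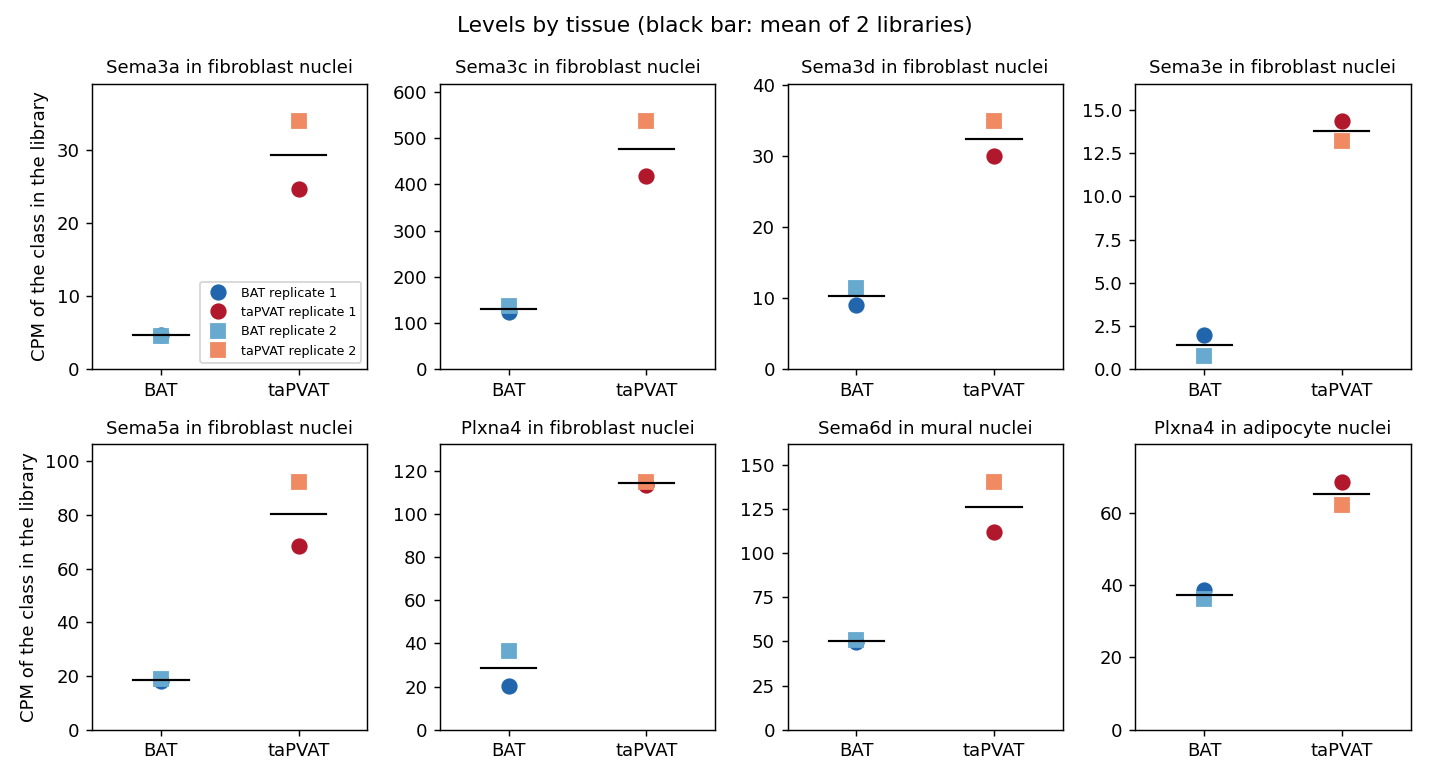
CPM of 8 gene and class pairs by tissue, 1 point per library, circles replicate 1 and squares replicate 2, black bars the mean of 2 libraries. The taPVAT points lie above the BAT points in every panel, as for Sema5a in fibroblasts (68.5 and 92.4 against 18.0 and 19.1 CPM). In the main edgeR fit, which has no term for the replicate number, no panel passed the threshold. With the replicate number as a block, which the labels do not tie to a rat or day, every panel passed it. That fit called 2.62% of all genes in fibroblasts, 1.28% in adipocytes and 0.297% in mural nuclei. The panels are nearly all of the members it called in a class, so this is a description. Sema3a and Sema3e in fibroblasts passed the low-count filter only through the taPVAT libraries.

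In mural nuclei edgeR called 0 of 16 members and 0% of 10095 genes, 2 members had an unadjusted p under 0.05, beside 3.27% of genes, and DESeq2 called 0 members (0.128% of genes). Sema6d had 112 and 141 CPM in taPVAT and 49.7 and 50.7 CPM in BAT (log2 difference 1.31, SE 0.28, edgeR adjusted p = 0.587), and Sema4a 6.85 and 9.44 against 2.26 and 2.41 CPM. Neither overlapped between the tissues, but Sema4a passed the low-count filter only through taPVAT, where it is high. With every gene of at least 1 UMI in the fit, Sema6d was called (edgeR adjusted p = 0.0372, 0.501% of genes). Pericytes were 77.6% and 84.4% of mural nuclei in taPVAT and 61.3% and 55.1% in BAT. Within pericytes alone, the Sema6d values given for the split were still higher in both taPVAT libraries than in both BAT libraries, which was not tested. Markers of other cell types moved with these values: the lymphatic gating list of 5 genes summed to 19.5 and 25.2 CPM in taPVAT and 2.71 and 6.27 CPM in BAT mural nuclei, with no gene at 0 in all 4 libraries. The held-out mesothelial list of 7 genes, most of it Gpm6a, summed to 192 and 99.6 CPM and 78.6 and 67.5 CPM, with Calb2 at 0 in all 4. Sema6d had 104 and 281 CPM in taPVAT lymphatic nuclei and no UMI in mesothelial nuclei. The part of lymphatic RNA in the mural Sema6d value was not tested.

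In vascular endothelial nuclei edgeR called 0 of 18 members and 0% of 10916 genes, 2 members had an unadjusted p under 0.05, beside 1.76% of genes, and DESeq2 called 1 (0.0225% of genes). That member was Sema3d, with 35 and 56 UMIs in the taPVAT libraries and 1 and 0 in the BAT libraries, or 9.88 and 46.2 CPM against 0.247 and 0 CPM. The ratio of the summed rates was 135.6, with an exact 95% interval of 23.7 to 5413 that covers counting error only. Sema3d passed the low-count filter of edgeR only through the taPVAT libraries, where it is high, so its calls are a description and no support. The DESeq2 adjusted p was 0.00906, and edgeR called Sema3d without taPVAT replicate 1, without BAT replicate 1 or without BAT replicate 2 (adjusted p = 0.0418, 2.39e-08 and 9.27e-05, where 0.00888%, 0.389% and 0.096% of genes were called). In each of these fits 1 tissue has a single library, which is assumed to vary like the 2 of the other tissue. The lymphatic gating list summed to 47.4 and 65.2 CPM in taPVAT and 21.5 and 52.7 CPM in BAT endothelial nuclei. Of this, Flt4 made up 18.63 and 53.65 CPM in taPVAT and 20.28 and 48.05 CPM in BAT. Once nuclei with a UMI of a lymphatic marker were left out, Sema3d no longer passed the low-count filter. The held-out lymphatic list summed to 93.7 and 76.8 CPM in taPVAT and 87.3 and 40.5 CPM in BAT, most of it Pkhd1l1. Plxna4, the other member, had 219.7 and 209 CPM in taPVAT and 156 and 90.2 CPM in BAT. The held-out mesothelial list, most of it Gpm6a, summed to 183 and 116 CPM and 68.3 and 102 CPM, with Calb2 and Cdh3 at 0 in all 4 libraries. The part of mesothelial RNA in the endothelial Plxna4 value was not tested.

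In adipocytes edgeR called 0 of 27 members and 0% of 15561 genes, 2 members had an unadjusted p under 0.05, beside 2.08% of genes, and DESeq2 called 0 members (0.332% of genes). Plxna4 had 68.7 and 62.1 CPM in taPVAT and 38.7 and 36.1 CPM in BAT, without overlap (log2 difference 0.85, SE 0.24). Sema3d, the other, stayed under 1 CPM. Nrp2 lay the other way, with 192 and 201 CPM in taPVAT and 284 and 339 CPM in BAT (log2 difference -0.62, SE 0.28). In myeloid nuclei edgeR called 0 of 11 members and 0% of 7134 genes, 0 members had an unadjusted p under 0.05, beside 1.29% of genes, and DESeq2 called 0 (0.00652% of genes). The myeloid Plxna4 values, given with the plexins, overlapped between the tissues.

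Over all nuclei of a library edgeR called 0 of 31 members and 0% of 16687 genes, 6 members had an unadjusted p under 0.05, beside 2.92% of genes, and DESeq2 called Sema3a and Sema3d (0.61% of genes). Sema3a had 5.22 and 4.47 CPM in taPVAT and 0.370 and 0.895 CPM in BAT (log2 difference 2.96, SE 0.52, edgeR adjusted p = 0.523). Sema3d had 5.07 and 4.08 against 0.416 and 0.958 CPM (log2 difference 2.75, SE 0.51, edgeR adjusted p = 0.572). Without BAT replicate 2, which leaves a single BAT library, edgeR called 3 members (0.327% of genes): Sema3a with a log2 difference of 3.75 (adjusted p = 0.00184), Sema3d with 3.49 (0.00384) and Sema3c with 2.27 (0.0310), which was 1.44 with all 4. The median log2 difference was 0.12 over the 31 members and -0.00228 over all genes. In such sums, fewer cells of a type and less RNA per cell cannot be told apart. Lymphatic nuclei held 57.5% and 75.7% of the Sema3a UMIs in taPVAT and 12.5% and 63.4% in BAT, and they were 0.702% and 0.409% of nuclei in taPVAT against 0.0437% and 0.0669% in BAT.

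Whether the tissue difference of a member itself differed from that in adipocytes was tested in 4 classes. Of 23 members edgeR called 0 in fibroblasts (0.0496% of genes), vascular endothelial (0%), mural (0.0397%) and myeloid nuclei (0%), and DESeq2 called 0 as well. An unadjusted p under 0.05 was found for 3, 2, 2 and 1 members in that order, beside 3.66%, 1.28%, 2.11% and 1.72% of genes. In fibroblasts the difference was 1.25 for Plxna4 (SE 0.36, edgeR adjusted p = 0.454) and 1.62 for Sema5a (SE 0.51, adjusted p = 0.594). For Sema6d in mural nuclei it was 1.90 (SE 0.51, edgeR adjusted p = 0.485). Without taPVAT replicate 1, which leaves 1 taPVAT library, calls rose over all genes as well: 6 members were called, Sema5a, Plxna4 and Sema6a in fibroblasts (7.11% of genes), Sema3d in vascular endothelial (0.264%), and Sema6d and Sema4c in mural nuclei (0.537%).

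Partner genes of the family were counted in the same fit between classes. Of 30 listed genes that act inside the cell, 24 were tested between classes, and 12 were higher and 2 lower in vascular endothelial nuclei, beside the 18.6% and 13.2% of all genes. They included Dpysl3, of the CRMP family that links semaphorin signals to microtubules (log2 difference 3.48, SE 0.32), and Mical2, an actin-oxidising enzyme (2.63, SE 0.26), with edgeR adjusted p of 1.16e-10 and 5.67e-10. Fibroblast and mural nuclei each had 8 higher and 0 lower, beside 18.9% and 15% of all genes in fibroblasts and 13.6% and 7.2% in mural nuclei. In mural nuclei these included Limk1, the kinase of cofilin (3.07, SE 0.24, edgeR adjusted p = 2.44e-12). In adipocytes 5 were higher and 11 lower (30.2% and 25.3% of all genes), among them Fyn, a Src-family kinase (-3.98, SE 0.24), and Dpysl2 (-3.83, SE 0.24), with edgeR adjusted p of 3.92e-14 and 1.00e-13.

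Of 14 listed co-receptors and other receptors, 8 were tested between classes, and 5 were higher and 0 lower in Schwann nuclei, beside 8.11% and 4.66% of all genes. L1cam, 1 of the 5, passed the low-count filter only through Schwann nuclei, where it is high, so the count that holds it is a description. The adhesion molecules Chl1 and Nrcam, of the family of L1cam, were higher there by 7.81 (SE 0.28) and 3.43 (SE 0.46) on the log2 scale (edgeR adjusted p = 2.51e-19 and 7.40e-07). Cd72, a B cell receptor of Sema4d, passed the filter only through B lymphocytes, where it had 38.3 CPM as a mean of 4 libraries. Between the tissues, edgeR called 0 genes of either list in the 6 comparisons.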

How the data were processed

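Nuclei came from about 50 mg of frozen tissue with 10x kits, per the labels' protocols. Cell Ranger 7.1.0 and the Rnor_6.0 genome are named in the submitters' processing notes. The deposited matrices hold raw UMI counts for each gene and barcode, not normalized, and no barcode had fewer than 500 UMIs. Barcodes with at least 500 genes were kept. Scrublet's own call marked no barcode in 1 library, so the top-scoring barcodes, 50% of the expected doublets at 0.8% per 1000 barcodes, were removed in each library (4.94% to 17.2%). A nucleus joined a class with at least 3 UMIs of at least 2 marker genes and a Poisson probability under 0.0001 given the library's share. Counts were summed per library and class (at least 20 nuclei) and fitted with edgeR 4.0.16 (TMM, filterByExpr, quasi-likelihood test, Benjamini-Hochberg adjustment over all genes of a fit, threshold 0.05) in R 4.3.3, and with DESeq2 1.42.0 as an alternative. The edgeR step was tested on simulated data. An SE given with edgeR, also in the figure, is the absolute log2 difference divided by the square root of the test's F statistic. It was not estimated directly. With 2 libraries for each tissue, p-values measure the spread between these libraries.

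The members and lists were chosen with earlier results of these data known. Members are named by rule: between classes every member with a mean of 10 CPM in some class, between tissues those called or of smallest p with 1 direction in both replicate numbers, up to 8 for each fit, and in splits those called. Pi16 is in both the fibroblast gate and the fibroblast split. Kdr, Flt1 and Flt4 are gate markers and were left out of the class fits. The alternatives were DESeq2, RLE scaling, no doublet removal, all genes with at least 1 UMI, at least 1000 genes per nucleus, a stricter gate, a limit on adipocyte RNA, leaving out each library, and the replicate number as a block. Added after seeing the data were Scrublet's own calls, leaving out nuclei with mesothelial or lymphatic marker UMIs, and the lymphatic fit.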

Additional observations from a re-analysis of the deposited data

How the results depend on the processing

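The number of members called between the tissues depended on the fit, as did the share of all genes called; without 1 library, a tissue has a single library assumed to vary like the others. Over all nuclei edgeR called 0, DESeq2 2, the fit of genes with at least 1 UMI 2 (0.258% of genes), and fits without 1 library 0 to 3. In fibroblasts the counts were 0, 3 and 6, with 0 to 3 without 1 library and 1 with the adipocyte RNA limit. In vascular endothelial nuclei they were 0, 1 and 1, with 0 to 1 without 1 library, and in mural nuclei the fit of genes with at least 1 UMI called 1. For the difference of the tissue effect between classes that fit called 2, and fits without 1 library 0 to 6. The 2 calls with at least 1 UMI were Sema3d in vascular endothelial (0.0482% of genes) and Sema6d in mural nuclei (0.201%). The arterial split had 3 of 14 members called, beside 251 of 8371 genes. With at least 1 UMI it had 6 of 29, beside 412 genes, and without 1 library 2 to 3. The smooth muscle split had 4 of 10, beside 953 of 7631 genes. By DESeq2 it had 2 of 19, beside 790 genes, and without 1 library 2 to 4. The Pi16 or Dpp4 split had 4 of 17, beside 484 of 8233 genes. With the adipocyte limit it had 2 of 12, beside 344 genes, and without 1 library 3 to 3. The share of all genes called in these alternative fits of the splits is not given. Between classes there were 77 calls in 184 member tests, beside 19930 calls over 10086 genes in each of 8 classes. The 77 became 58 to 72 without 1 library, a range not set against that of all genes. The smooth muscle split was not run with at least 1000 genes per nucleus, since a sum had under 20 nuclei.

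The replicate number as a block, which the labels do not tie to a rat or day, gave 5 members over all nuclei (2.18% of genes). These were Sema3a, Sema3c, Sema3d, Sema5a and Plxna4. It gave 1 member in adipocytes (Plxna4, 1.28%), 6 in fibroblasts (2.62%), 1 in vascular endothelial (Sema3d, 0.0824%) and 1 in mural nuclei (Sema6d, 0.297%). The 6 in fibroblasts were Sema3a, Sema3c, Sema3d, Sema3e, Sema5a and Plxna4. The difference between replicates 1 and 2 correlated between the tissues, across genes, at 0.425 to 0.695 in the 6 fits, from 2 pairs.

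None of the tissue differences that reversed had been called. Without 1 library, the log2 difference ran over -0.0395 to 0.965 for Sema5a in adipocytes, -1.46 to 0.159 for Sema7a and -0.595 to 0.0955 for Nrp2 in vascular endothelial nuclei, and -0.0240 to 1.76 for Sema4c in mural nuclei. In myeloid nuclei it ran over -0.0526 to 0.750 for Plxnb2, -0.0899 to 0.587 for Plxnd1 and -0.0718 to 0.374 for Plxna2. With the adipocyte limit it was 0.0943 for Nrp2 in fibroblasts and -0.705 for Plxna2 in myeloid nuclei, and -0.0289 for Plxna2 there with the stricter gate. The cause was not tested. Rare classes limit the depth: lymphatic nuclei in BAT and all mesothelial nuclei allowed no test between the tissues.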

Other observations

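Some members differed more between replicate numbers than between tissues, a pattern chosen after their values were seen. Sema4b in adipocytes had 113 and 39.1 CPM in the taPVAT libraries and 170.2 and 30.0 CPM in the BAT libraries, each time replicate 1 first. Plxnd1 had 65.7 and 22.3 CPM and 64.2 and 17.2 CPM. Replicate 1 was the higher in both tissues for both genes. In vascular endothelial nuclei Sema7a had 21.7, 55.3, 33.4 and 82.0 CPM in the same order, with replicate 2 the higher in both tissues. The labels do not say what the replicate numbers share, and its part in these values was not tested.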
